A study of Mus musculus with 9 samples.

Results

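A set of 10 transcription factor genes with known roles in endothelium was followed across the groups: the ETS factors Erg, Fli1, Ets1, Ets2, Elk3 and Etv6, the SOX factors Sox7, Sox17 and Sox18, and the GATA factor Gata2. They were taken by name and are 10 of the 55487 genes in the count table. Poly-A RNA-seq was performed on MCEC, a line of mouse cardiac endothelial cells, in 9 libraries. Of these, 3 libraries came from wild-type cells (WT), 3 from cells with Zbtb46 knocked down (KD) and 3 from cells with enforced Zbtb46 overexpression (OE). All groups were of the same cell line, the labels name no further allele, treatment or time, and Zbtb46 encodes a BTB-domain zinc finger transcription factor. The labels leave out how Zbtb46 was knocked down or overexpressed, whether each is a single line, or whether replicates were separate cultures, and no vector control was analysed here. P-values therefore measure the spread between these libraries, which may be technical.

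ETS factors bind DNA at sites with a GGAA core, and nearly all known endothelial enhancers hold such sites. Erg and Fli1 are closely related activators that maintain endothelial identity, Ets1 and Ets2 are activators that respond to growth factor signalling, and Elk3 and Etv6 act mainly as repressors. Sox7, Sox17 and Sox18 form the SoxF subfamily, which acts in arterial and lymphatic specification, and Gata2 is the main GATA factor of endothelium and of blood progenitors.

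Total counts ran from 39491828 to 55745849 per library, and levels are CPM (counts brought to the same library size) with TMM factors, as mean ± SD over 3 libraries. Zbtb46 stood at 13.7 ± 0.623 CPM in WT, 11.2 ± 0.537 in KD and 191 ± 2.67 in OE, so its direction matched the label in both modified groups. The fall in KD was small, at 17.8% (log2 fold change -0.28, SE 0.0548, adjusted p = 0.00144, edgeR). In that comparison 10.4% of all tested genes were lower at an adjusted p under 0.05. The endothelial label was checked on 8 endothelial markers. Only Kdr, Tek and Esam had enough counts to be tested, and Cldn5 had at most 3 counts in every library. Cdh5 (VE-cadherin) reached at most 7 counts in a library, Pecam1 at most 10, Tie1 at most 9 and Vwf at most 6. The 8 markers summed to 4.77 to 5.93 CPM in WT, 2.89 to 3.89 in KD and 2.6 to 3.25 in OE, while 8 fibroblast markers, mostly the collagen genes Col1a1 and Col3a1, summed to 8094 to 8959, 8042 to 8168 and 5074 to 5186 CPM. The fibroblast list was uneven too: Col1a2 stood at 0.611 ± 0.0993 CPM in WT, Lum and Tcf21 had at most 2 counts in any library, and Postn had 0 counts in every WT library and at most 12 elsewhere. Several defining endothelial genes were thus absent or near 0 in libraries labelled endothelial.

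Erg and Ets2 are neighbours on chromosome 16, with 115 kb between them, and had opposite levels, since Erg had 0 counts and Ets2 was among the higher members. The sequence around the start of each is shown for this contrast, together with that of Elk3, whose level moved the other way from Ets2 in KD. Each window is the RefSeq sequence of GRCm38.p6 from 250 bases before to 50 bases after a start, written 5′ to 3′ on the gene's strand, with CG dinucleotides (CpG) in capitals. The Erg window is chr16:95586544-95586843 on the minus strand, that of Ets2 is chr16:95702157-95702456 on the plus strand, and that of Elk3 is chr10:93311110-93311409 on the minus strand.
Erg: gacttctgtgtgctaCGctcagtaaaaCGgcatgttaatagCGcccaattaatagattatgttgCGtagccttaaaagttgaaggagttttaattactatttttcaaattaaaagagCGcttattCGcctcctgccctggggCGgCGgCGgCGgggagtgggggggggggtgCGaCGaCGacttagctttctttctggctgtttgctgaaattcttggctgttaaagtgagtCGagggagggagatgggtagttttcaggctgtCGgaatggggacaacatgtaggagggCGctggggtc
Ets2: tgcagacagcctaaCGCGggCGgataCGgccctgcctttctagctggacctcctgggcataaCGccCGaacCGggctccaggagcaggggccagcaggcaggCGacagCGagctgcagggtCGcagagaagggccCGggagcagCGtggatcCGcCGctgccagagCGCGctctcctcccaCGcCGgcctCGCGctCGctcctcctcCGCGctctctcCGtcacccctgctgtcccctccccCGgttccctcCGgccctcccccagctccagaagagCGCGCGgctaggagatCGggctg
Elk3: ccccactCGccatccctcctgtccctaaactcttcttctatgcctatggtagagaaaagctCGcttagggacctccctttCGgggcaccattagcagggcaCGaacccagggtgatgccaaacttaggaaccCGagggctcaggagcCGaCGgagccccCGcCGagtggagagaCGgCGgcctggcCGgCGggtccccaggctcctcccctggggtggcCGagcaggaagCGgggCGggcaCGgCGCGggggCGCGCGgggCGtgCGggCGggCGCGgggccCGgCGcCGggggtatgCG

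The Ets2 window holds 30 CpG and 71.7% G and C, and the Elk3 window holds 31 CpG and 71.3%. The Erg window holds 16 CpG and 50.3%. Over the 32851 windows of this length the median was 7 CpG, and 88.3% of them hold fewer than Ets2, 89.4% fewer than Elk3 and 67% fewer than this Erg window. Erg has a pair of further starts with 2 and 4 CpG, Etv6 has 17, and the starts of Gata2 have 32 and 29. Searched on both strands, the exact ETS-type motif CCGGAA is in none of the windows of these 5 genes, against 14.9% of all windows. The GGAA core in other contexts was not searched for. It does occur, as in the Elk3 and Erg windows shown, so the search does not show a lack of ETS sites. The GATA-type motif AGATAA (11.2% of all windows) and the SOX-type motif AACAAT (10.7%) each match once, in the Erg window with 4 CpG. Fli1, Ets1, Sox7, Sox17 and Sox18 have no entry in the table used.

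The members fell into a silent and an expressed set. Erg, on chromosome 16 from 95359169 to 95586593 (GRCm38, GENCODE M21), had 0 counts in all 9 libraries. The limit that a count of 0 allows, 3 counts in a library, is 0.0504 to 0.0791 CPM in these libraries. Sox17 (chromosome 1, 4490931 to 4497354) had 1 count in a single WT library and 0 in the other 8. Sox7 (chromosome 14, 63943673 to 63950732) had 0 counts in WT, 1 count in a single KD library and 2 in a single OE library. Sox18 (chromosome 2, 181669836 to 181671640) had 0, 4 and 2 counts in WT, 6, 0 and 4 in KD, and 2, 2 and 0 in OE. No group stood apart in any of these 4 genes, and none could be tested. All 3 SoxF genes were therefore at or near the limit of detection, with and without added Zbtb46.

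**Figure D1:**
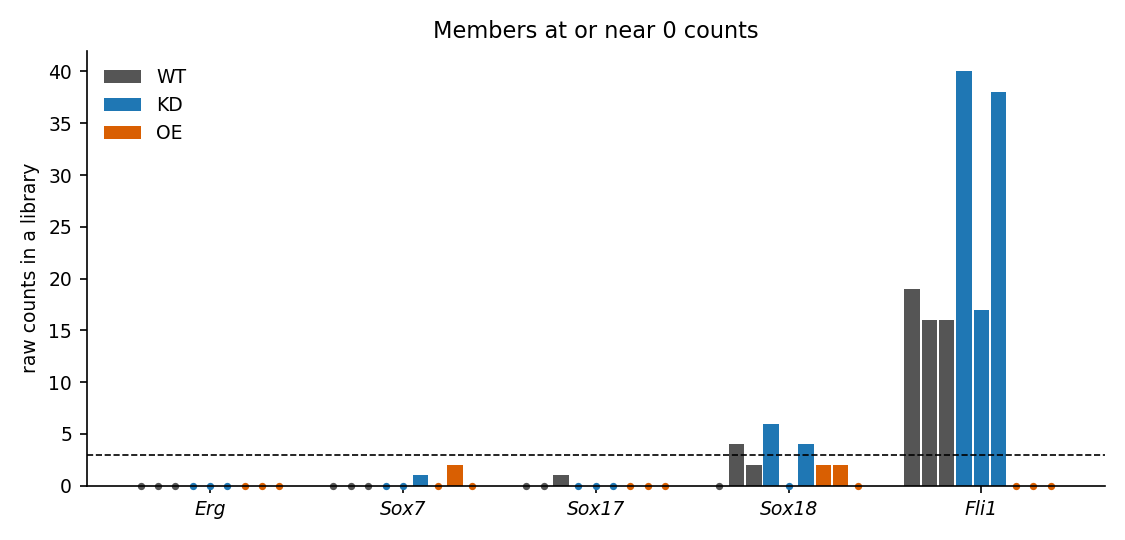
Raw counts per library (y axis) of the 5 members with few counts, for WT, KD and OE libraries. The dashed line marks 3 counts. Erg lies at 0 throughout, Sox7, Sox17 and Sox18 stay at 6 counts or under, and Fli1 lies at 16 to 40 counts in WT and KD and at 0 in the 3 OE libraries.

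A further 5 members were well expressed, and their order in WT is given as CPM per kb of exon, which allows genes to be compared. Ets2 was the highest at 9.11 ± 0.343, then Etv6 at 8.78 ± 0.471, Ets1 at 7.83 ± 0.558, Elk3 at 6.13 ± 0.322 and Gata2 at 5.74 ± 0.323. The ranges of Ets2 and Etv6, of Etv6 and Ets1, and of Elk3 and Gata2 overlapped, and those of Ets1 and Elk3 did not. Ets2 lay above 69.7% and Gata2 above 59.7% of the 16934 tested genes with a length, whereas Fli1, at 0.108 CPM per kb, lay above 6.5%. In KD the order was Ets2 (10.9), Ets1 (8.94), Etv6 (8.46), Gata2 (5.68) and Elk3 (5.31), with no overlap between neighbours. In OE it was Etv6 (9.04), Ets2 (8.95), Elk3 (7.43), Ets1 (6.6) and Gata2 (5.39), where the ranges of Etv6 and Ets2 overlapped. Elk3 thus stood below Gata2 in KD and above Ets1 in OE.

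**Figure D2:**
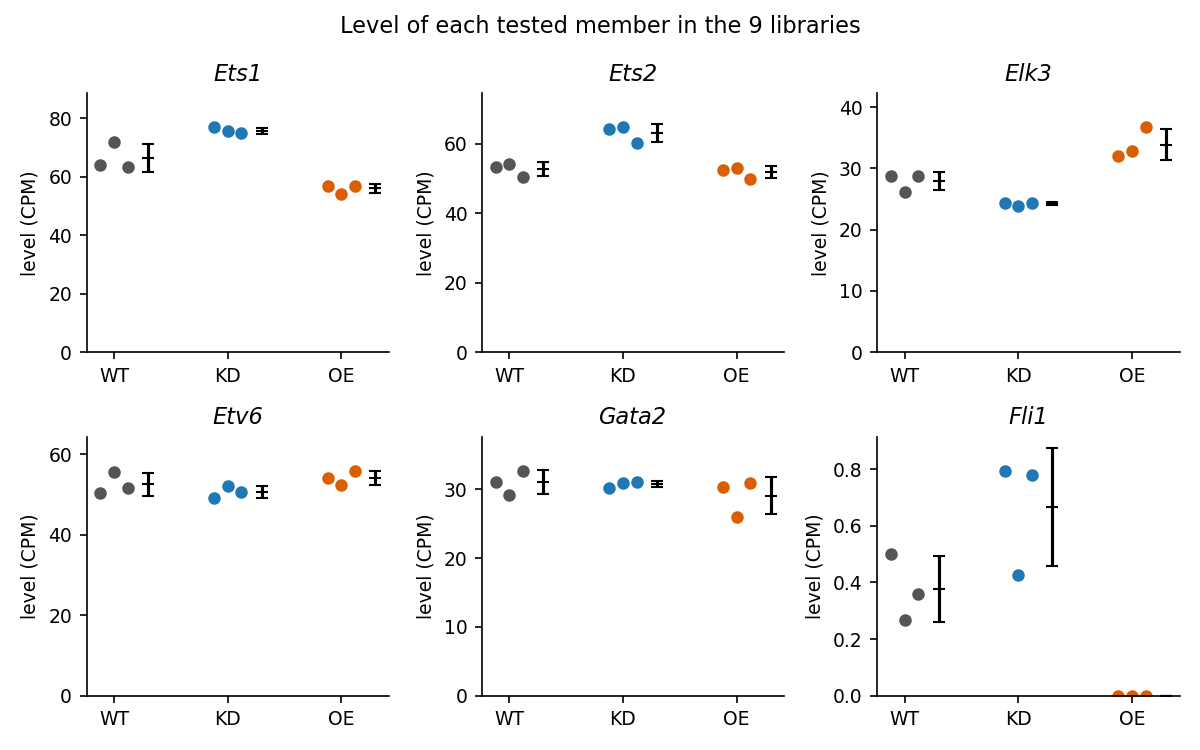
Level of each of the 6 tested members in every library (y axis, CPM; each dot is a library), with the mean and SD of each group as bars, on axes of different range. Ets1 and Ets2 are highest in KD, Elk3 is highest in OE and lowest in KD, the groups overlap for Gata2, and Fli1 is at 0 in OE.

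In all, 6 members had enough counts for the test: Fli1, Ets1, Ets2, Elk3, Etv6 and Gata2. Fli1 passed the count filter only through WT and KD, so its calls in OE are counted below but are no support for a difference. A gene is said to be called where its adjusted p in edgeR's quasi-likelihood test lay under 0.05. Against WT, 3 of the 6 were called in KD (Ets1 and Ets2 higher, Elk3 lower), where 21.3% of the 16955 tested genes were called (11.0% higher and 10.4% lower). In OE, 3 of the 6 were called against WT (Elk3 higher, Fli1 and Ets1 lower), beside 36.4% of all tested genes (17.0% higher and 19.5% lower). Between OE and KD, 4 of the 6 were called (Elk3 higher, Fli1, Ets1 and Ets2 lower), beside 41.5% (19.4% higher and 22.1% lower). In the test over the 3 groups 4 of the 6 were called, beside 47.7%. Groups that did not overlap were found for 3, 3 and 5 of the 6 in the 3 comparisons, beside 34.7%, 45.1% and 55.4% of all tested genes. More abundant genes were called more often: among the 10579 that averaged 5 CPM or more in any group, as 5 of the 6 members do, the shares were 29.4%, 49.2% and 54.7%. The median log2 fold change of the 6 was 0.09, -0.06 and -0.18 in the 3 comparisons, beside 0.00, 0.00 and 0.01 over all tested genes. Fli1 is the lowest of the 6 in OE by its fitted value and by its bound, so both give the same medians. Changes against WT in KD and in OE share the WT libraries, so their values are set side by side and not related to each other.

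**Figure D3:**
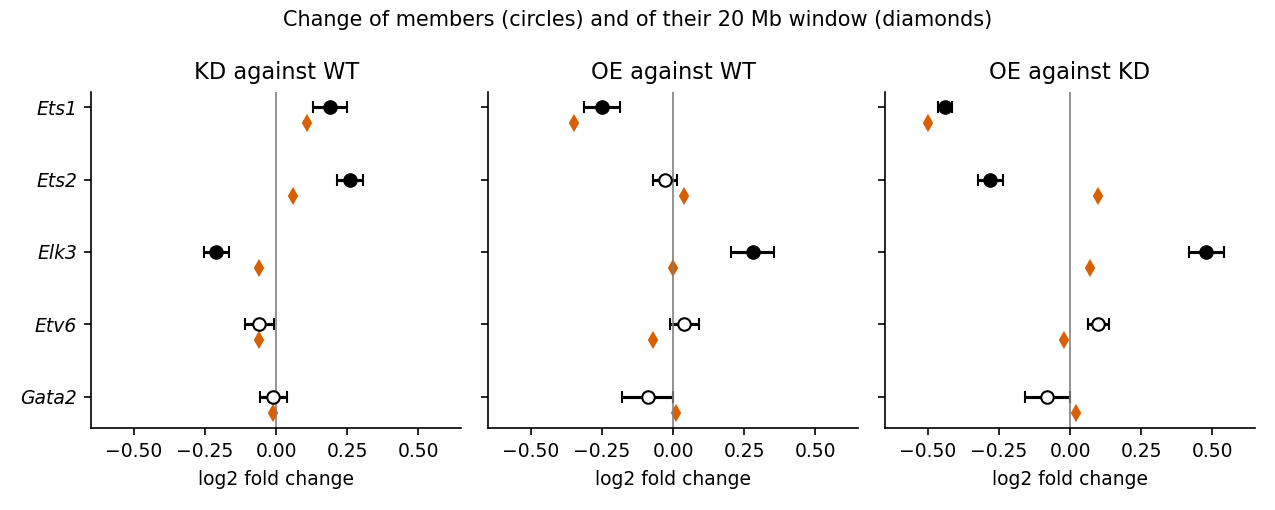
Log2 fold change (x axis) of 5 tested members with its standard error (Fli1, at 0 in OE, is left out), in the comparisons KD against WT, OE against WT and OE against KD. Filled circles had an adjusted p under 0.05 and diamonds give the median of the genes in the same 20 Mb window, which for Ets1 reaches -0.35 in OE against WT; with these medians removed Ets1 was not called.

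Fli1 was the member with the largest difference, though at a low level. The gene lies on chromosome 9 from 32422204 to 32542861, 93.4 kb before Ets1. Its counts were 19, 16 and 16 in WT, 40, 17 and 38 in KD, and 0, 0 and 0 in OE. The OE libraries held no Fli1 read, while every WT and KD library held at least 16. Against the level of 3 counts in a library, Fli1 was at least 5.9-fold lower in OE than in WT and at least 10.5-fold lower than in KD. Fli1 passed the count filter only through WT and KD, so no p-value is given for OE. In KD the level was 0.667 ± 0.208 CPM against 0.376 ± 0.117 in WT, and the groups overlapped. That difference did not pass the test (log2 fold change 0.86, SE 0.359, adjusted p = 0.214, edgeR). In these bulk samples, fewer Fli1-expressing cells and less Fli1 RNA per cell cannot be told apart.

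Ets1 lies on chromosome 9 from 32636221 to 32757820. Its levels were 64.1, 71.8 and 63.2 CPM in WT, 76.9, 75.5 and 74.9 in KD, and 56.9, 54.2 and 56.8 in OE. The 3 groups did not overlap, with KD highest and OE lowest. Ets1 was 14.1% higher in KD than in WT (log2 fold change 0.19, SE 0.0593, adjusted p = 0.0124, edgeR) and 15.7% lower in OE (-0.25, SE 0.0627, adjusted p = 8.78e-04). Between the modified lines it was 26.1% lower in OE (-0.44, SE 0.0258, adjusted p = 7.71e-07). The rise in KD did not pass the test with library totals alone as scaling (0.15, adjusted p = 0.196), without WT replicate 1 (adjusted p = 0.052) or without KD replicate 1 (adjusted p = 0.0573).

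Many genes around Ets1 were lower in OE, as Ets1 was, and fewer were higher in KD. In the 20 Mb window of chromosome 9 that holds Fli1 and Ets1, from 20000001 to 40000000, the median log2 fold change of 143 tested genes was 0.11 in KD and -0.35 in OE against WT, and -0.50 between OE and KD. Of the 141 genes there other than Fli1 and Ets1, 116 (82.3%) lay below 0 in OE against WT, 83 were called lower and 4 higher. In OE 91 of the 141 had a lower log2 fold change than Ets1 and 50 a higher one. In KD against WT 36 of the 141 were called higher and 7 lower, and 95 had a lower log2 fold change than Ets1 and 46 a higher one. Ets1 thus fell less than most of its window in OE and stood above most of it in KD. Arhgap32, the nearest tested gene on the far side of Fli1 at 154 kb, had 0.21 in KD and -0.46 in OE. With each window's median removed, Ets1 had a log2 fold change of 0.08 in KD (adjusted p = 0.324), 0.10 in OE (adjusted p = 0.159) and 0.02 between OE and KD (adjusted p = 0.82), so no difference of Ets1 passed the test relative to its window, and its direction in OE turned. Fli1 had 0 counts in every OE library, so removing the window median could not change its direction and does not test it against its window.

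**Figure D4:**
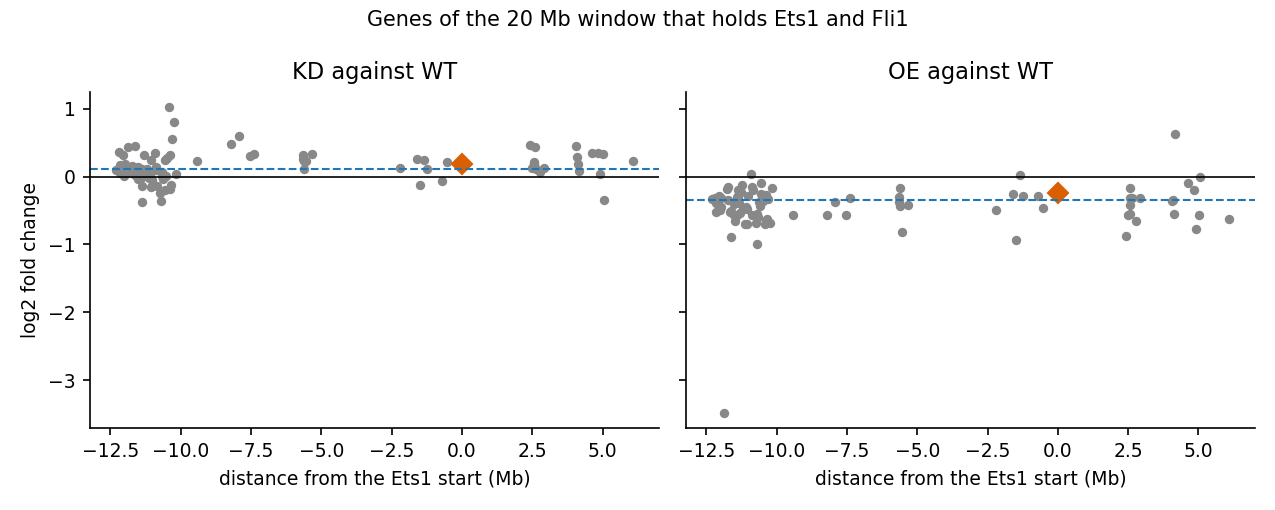
Log2 fold change in KD against WT and in OE against WT (y axis; each dot is a gene) of the 91 more abundant genes (5 CPM or more on average in any group) of the chromosome 9 window, by distance from the start of Ets1 (x axis, Mb). The dashed line is the median of all 143 tested genes of the window, 0.11 in KD and -0.35 in OE, and Ets1 (diamond) lies at 0.19 and -0.25.

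Ets2, on chromosome 16 from 95702075 to 95721051, rose in KD against WT and was not called in OE against WT. It stood at 53.4, 54.2 and 50.4 CPM in WT, 64.2, 64.7 and 60.2 in KD, and 52.3, 53.1 and 49.8 in OE. All KD libraries lay above all others, and the WT and OE libraries overlapped. Ets2 was 19.7% higher in KD than in WT (log2 fold change 0.26, SE 0.0459, adjusted p = 9.69e-04, edgeR) and 17.9% lower in OE than in KD (-0.28, SE 0.0436, adjusted p = 1.32e-04). In OE against WT the log2 fold change was -0.03 (SE 0.0424, adjusted p = 0.758). The 89 tested genes of its window had medians of 0.06, 0.04 and 0.10 in KD against WT, OE against WT and OE against KD. The rise in KD was called under every alternative run, with log2 fold changes of 0.20 to 0.29 and an adjusted p of at most 0.0374.

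Elk3, a repressor of the ternary complex factor group on chromosome 10 from 93247414 to 93311135, went the other way. Its levels were 28.7, 26.2 and 28.8 CPM in WT, 24.4, 23.9 and 24.3 in KD, and 32.0, 32.8 and 36.7 in OE. The 3 groups did not overlap, with KD lowest and OE highest. Elk3 was 21.3% higher in OE than in WT (log2 fold change 0.28, SE 0.0748, adjusted p = 0.00208, edgeR) and 39.8% higher than in KD (0.48, SE 0.061, adjusted p = 4.08e-06). It was 13.3% lower in KD than in WT (-0.21, SE 0.0453, adjusted p = 0.0323), a call lost with limma-voom (adjusted p = 0.0522), with window medians removed (0.141), and without WT replicate 1 (0.0954), WT replicate 3 (0.0822) or any single KD replicate (0.0776 to 0.106). Exons of Elk3 overlap those of Cdk17 on the opposite strand, and the strand setting of the counting is not given in the sources used here. Cdk17 stood at 16.9 ± 0.81, 17.1 ± 0.842 and 21.8 ± 0.759 CPM in WT, KD and OE, with a rise in OE (log2 fold change 0.36, SE 0.049, adjusted p = 4.18e-04) and 0.02 in KD (adjusted p = 0.919), and its part in the counts of Elk3 was not tested.

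Ratios to Elk3 within a library, which no scaling of libraries can change, are given as a description, since the directions of these genes were already known from their levels. Per kb of exon, WT libraries had an Ets1 to Elk3 ratio of 1.28 ± 0.163, KD libraries 1.68 ± 0.0228 and OE libraries 0.892 ± 0.061, with ranges of 1.18 to 1.47, 1.66 to 1.7 and 0.832 to 0.954. The Ets1 ratio lay above 1 in every WT and KD library and below 1 in every OE library. The Ets1 ratio was not computed relative to the window of Ets1. With window medians removed, the log2 fold change of Ets1 in OE against WT was 0.10 (adjusted p = 0.159, edgeR). For Ets2, the other activator, the ratio to Elk3 averaged 1.49 ± 0.127 across WT libraries, 2.05 ± 0.0926 across KD and 1.21 ± 0.123 across OE, and it stayed above 1 in every OE library (1.29, 1.28 and 1.07). Etv6, a repressor like Elk3, had ratios of 1.44 ± 0.155, 1.59 ± 0.0657 and 1.22 ± 0.0623. The 6 ETS members summed to 32 ± 0.913 CPM per kb in WT, to 33.8 ± 0.497 in KD and to 32 ± 0.609 in OE. Elk3 made up 19.2% ± 1.53 of that sum in WT, 15.7% ± 0.352 in KD and 23.2% ± 1.3 in OE. Ets1 made up 24.5% ± 1.04, 26.4% ± 0.34 and 20.6% ± 0.421. These are shares within the libraries and were not tested. With 3 libraries a group, the smallest two-sided p that exact permutation allows is 0.1.

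Etv6 and Gata2 were not called in any comparison. Etv6, an ETS repressor on chromosome 6 from 134035700 to 134270158, stood at 52.5 ± 2.82 CPM in WT, 50.6 ± 1.53 in KD and 54.1 ± 1.73 in OE. Its log2 fold changes were -0.06 in KD (SE 0.0509, adjusted p = 0.528, edgeR) and 0.04 in OE (SE 0.0516, adjusted p = 0.609). Between OE and KD it was 0.10 (SE 0.0366, adjusted p = 0.163), which passed the test with upper-quartile scaling (0.16, adjusted p = 0.0152). Gata2, on chromosome 6 from 88193891 to 88207032, stood at 31.0 ± 1.74 CPM in WT, 30.7 ± 0.441 in KD and 29.1 ± 2.66 in OE, and its groups overlapped throughout. Its log2 fold changes were -0.01 in KD (SE 0.0485, adjusted p = 0.921) and -0.09 in OE (SE 0.0913, adjusted p = 0.334). These tests do not show that the levels were equal.

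Among 20 other ETS genes, 11 were tested and 8 had at most 3 counts in every library. In WT, Erf stood at 23.7 ± 2.68 CPM per kb of exon, Gabpa at 14 ± 1.58 and Elf4 at 10.9 ± 0.552. All lay above Ets2, the highest ETS member at 9.11 ± 0.343, and none is part of the ratios and sum above. In KD 0 of the 11 were called higher and 2 lower than in WT, and in OE 2 were called higher and 1 lower. These shares of 18.2% and 27.3% lie under the 21.3% and 36.4% of all tested genes. The median log2 fold changes were 0.01 and -0.02. Etv4, a PEA3-group activator, followed the direction of Elk3, at 4.69 ± 1.03 CPM in WT, 2.11 ± 0.158 in KD (log2 fold change -1.15, SE 0.182, adjusted p = 1.85e-05) and 9.15 ± 0.356 in OE (0.97, SE 0.175, adjusted p = 1.15e-05). Elf1 fell in OE from 28.5 ± 2.68 to 17.8 ± 1.39 CPM (-0.68, SE 0.101, adjusted p = 7.21e-07) and stood at 29.5 ± 1.83 in KD (adjusted p = 0.709, edgeR). The count in KD was 1 with window medians removed, with only the 2 groups compared, or on leaving out replicate 3 of WT, or replicate 1 or 3 of KD. It was 5 without WT replicate 2, as was the count in OE.

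Other SOX genes were expressed where the SoxF genes were not. Of 16, 7 were tested and 6 had at most 3 counts in every library. In KD 1 was called higher and 3 lower than in WT (57.1%, beside 21.3% of all tested genes). In OE 3 were called higher and 2 lower (71.4%, beside 36.4%). Between OE and KD 4 were called higher and 3 lower (100%, beside 41.5%). Sox13 passed the count filter without its KD libraries and Sox6 without its OE libraries, which limits the counts that include them. Sox12, a SoxC factor, stood at 268 ± 8.42 CPM in WT, 229 ± 2.92 in KD (log2 fold change -0.22, SE 0.0284, adjusted p = 3.17e-04) and 196 ± 4.13 in OE (-0.45, SE 0.0317, adjusted p = 1.40e-08). Sox4, of the same subfamily, stood at 176 ± 15, 113 ± 6.77 and 162 ± 7.84 CPM, with a fall in KD (-0.64, SE 0.0876, adjusted p = 4.76e-07) and no call in OE (-0.12, adjusted p = 0.141, edgeR). Per kb of exon, Sox12 reached 60.1 ± 1.89 and Sox4 36.6 ± 3.13 CPM in WT, against at most 0.0414 for the group mean of any SoxF gene.

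Gata2 was not the leading GATA gene of these cells. In WT, Gata6 stood at 31 ± 0.309 CPM per kb of exon and Gata4 at 22.7 ± 0.519, above Gata2 at 5.74 ± 0.323, Gata3 at 2.93 and Gata5 at 0.868, and their ranges did not meet that of Gata2. Both Gata4 and Gata6 are known from heart development. Of 5 other GATA genes, 4 were tested. In KD 1 was called higher and 2 lower than in WT (75%, beside 21.3% of all tested genes). In OE 0 were called higher and 1 lower (25%, beside 36.4%). Gata6 fell from 202 ± 2.01 CPM in WT to 177 ± 1.17 in KD (log2 fold change -0.19, SE 0.00995, adjusted p = 8.00e-04) and 164 ± 1.48 in OE (-0.30, SE 0.0111, adjusted p = 2.33e-06). Gata3 was higher in KD, at 14.4 CPM against 11.7 in WT (0.30, SE 0.065, adjusted p = 0.0203), and stood at 11.4 in OE (adjusted p = 0.805, edgeR). The counts moved to 1 in KD without KD replicate 2 and to 2 in OE with window medians removed.

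**Figure D5:**
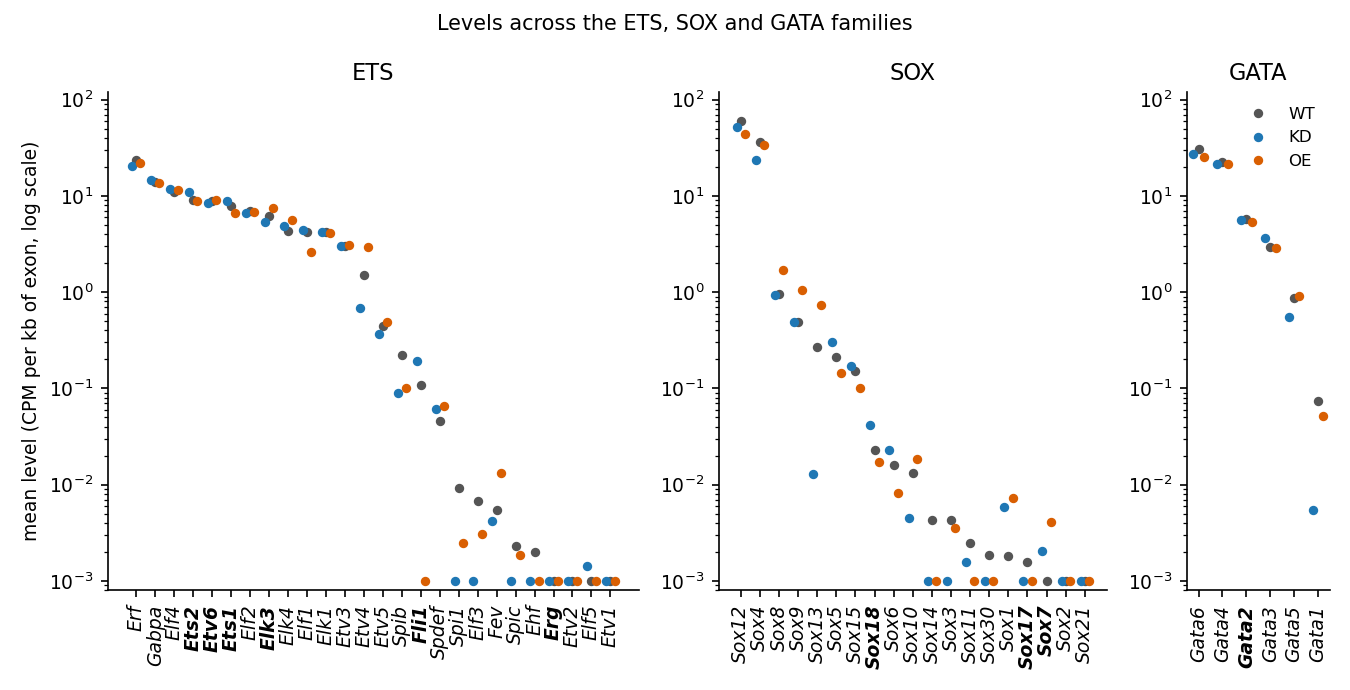
Mean level in each group (y axis, CPM per kb of exon, log scale; dots in 3 colours for WT, KD and OE) of all ETS, SOX and GATA genes examined, with members in bold and values under 0.001 drawn at 0.001. The well expressed members lie between 5.31 and 10.9, Gata6 and Sox12 lie above all members, and Erg lies at the lower edge.

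Partner factors bind with the ETS, SOX and GATA proteins or act beside them in endothelium. Of 12 partner genes, 10 were tested. In KD 1 was called higher and 6 lower than in WT (median log2 fold change -0.33). In OE 3 were called higher and 2 lower (median 0.12). These are 70% and 50% of the 10, beside 21.3% and 36.4% of all tested genes. Among the genes that averaged 5 CPM or more in any group, as most of the 10 do, the shares were 29.4% and 49.2%. The genes called lower include Tal1, which passed the count filter only through WT. Zfpm1, which encodes the GATA cofactor FOG-1, fell from 192 ± 9.32 CPM in WT to 146 ± 3.3 in KD (-0.40, SE 0.0444, adjusted p = 1.47e-06) and 81.3 ± 2.51 in OE (-1.24, SE 0.0479, adjusted p = 1.41e-14). The genes of its own 20 Mb window had a median of -0.44 in OE against WT. Epas1, a hypoxia-inducible factor, was lower in KD (-0.28, SE 0.0617, adjusted p = 0.00135) and higher in OE (0.25, SE 0.0587, adjusted p = 0.00169, edgeR). The count in OE was 2 with library totals alone.

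The genes that these factors are known to drive were mostly weak. Of 30 endothelial target genes, 16 were tested, and Cldn5, Clec14a, Emcn and Icam2 had at most 3 counts in every library. In KD 0 were called higher and 5 lower than in WT, and in OE 3 were called higher and 7 lower. These are 31.2% and 62.5% of the 16, beside 21.3% and 36.4% of all tested genes. The median log2 fold changes were -0.36 and -0.30. Their summed level was 469 to 491 CPM in WT, 445 to 454 in KD and 367 to 395 in OE. Flt4, the receptor of VEGF-C, fell in OE from 116 ± 5.41 to 75.4 ± 0.389 CPM (log2 fold change -0.62, SE 0.0386, adjusted p = 1.06e-09) and stood at 106 ± 3.95 in KD (adjusted p = 0.058). Ecscr, an endothelial surface protein of cell migration, was lower in KD (-1.65, SE 0.0492, adjusted p = 1.76e-07) and higher in OE (0.79, SE 0.139, adjusted p = 9.19e-05, edgeR).

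Markers of other cell types differed between the groups to unequal extents. Of 5 tested fibroblast markers, 1 was called lower in KD than in WT (20%, beside 21.3% of all tested genes). In OE 5 were called lower (100%, beside 36.4%), among them Col3a1 (log2 fold change -1.58, SE 0.0416, adjusted p = 3.09e-17) and Dcn (-1.42, SE 0.0576, adjusted p = 1.76e-14). The fibroblast count in KD was 0 with library totals alone or without replicate 2 or 3 of KD, and 2 with upper-quartile factors, without WT replicate 1 or without KD replicate 1. Of 6 tested mural cell markers, 1 was called lower in KD and 2 in OE, shares of 16.7% and 33.3% that lie under those of all tested genes. Acta2 was lower in KD (-1.47, SE 0.107, adjusted p = 2.66e-07) and in OE (-2.14, SE 0.133, adjusted p = 4.83e-10, edgeR), and Pdgfrb in OE (-1.42, SE 0.342, adjusted p = 5.17e-05). Myh11, Cnn1, Tagln and Des were called in neither, with log2 fold changes of -0.25, -0.54, 0.32 and -0.64 in KD and -0.59, 0.02, -1.08 and -0.07 in OE. The 8 mural markers summed to 12.5 to 15.4 CPM in WT, 7.63 to 7.76 in KD and 4.72 to 5.69 in OE, of which Acta2 alone had means of 7.73, 2.8 and 1.76. Of 2 tested leukocyte markers, 0 were called against WT in KD or OE by edgeR, DESeq2 or limma-voom. Without adjustment over genes, Cd68 alone passed 0.05 with edgeR, in KD. Leukocyte markers summed to 4.19 to 4.67, 5.2 to 5.75 and 3.2 to 4.56 CPM, and cardiomyocyte markers to 0.773 to 1.05, 0.804 to 1.05 and 1.43 to 1.68 CPM. Ptprc and Adgre1 had at most 3 counts in every library, as had Myh6, Myh7 and Actn2. Of 2 tested cardiomyocyte markers, 1 was called in KD and 1 in OE against WT. Tnni3, with 8 to 19 counts in WT and 0 to 2 in KD, was at least 4.07-fold lower in KD. Tnni3 passed the count filter without its KD libraries, so no p-value is given. Tnnt2 was higher in OE (log2 fold change 0.92, SE 0.282, adjusted p = 0.0435, edgeR). The count in OE was 0 with library totals alone or with window medians removed. The part of a changed mix of cells in the levels of Ets1, Ets2, Elk3 and Fli1 was not tested.

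Ets1 had the largest F among the members in the test over the 3 groups. The genes most like it over the 9 libraries, by Pearson's r of log2 CPM among the same 10579 more abundant genes, were Cast (r = 0.996), Prps1l3 (0.993) and Larp4b (0.993). They are given as a description, since the libraries share their groups and scaling.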

How the data were processed

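The deposited values are raw read counts for each Ensembl gene, whole numbers with unequal library totals. The labels' protocols describe poly-A selection, random hexamers and paired-end sequencing, and the submitters' processing notes name GRCm38 and mm10. The aligner, counter and strand setting are not given in the sources used here. Of 55774 rows, those of 168 genes were repeats with identical counts and were used once, which left 55487 genes. Positions and exon lengths came from GENCODE M21 (55141 genes matched by identifier). Ribosomal RNA features, with those of mitochondria included, took 7.44% to 18.2% of counts. Samples were grouped by the genotype label.

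Genes passing filterByExpr (16955) were scaled with TMM and fitted with edgeR 4.0.16 (quasi-likelihood, robust) over all 9 libraries with group as the only term. Benjamini-Hochberg adjustment covered all tested genes, and 0.05 was the threshold. Standard errors of log2 fold changes were computed from the spread of log2 CPM within groups (prior count 2). Where no library of a group exceeded 3 counts, the fold was computed with 3 counts in each of its libraries, and such limits cover counting error only. DESeq2 1.42.0 and limma 3.58.1 served the alternatives (R 4.3.3). Tables and plots were made with matplotlib 3.10.9, numpy 2.4.6 and pandas 2.3.3 under Python 3.11.15. The procedure was tested on simulated data.

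The members and gene lists were chosen with earlier results of these data known. Named genes were the 10 members, Zbtb46, the 2 genes with the smallest p over the 3 groups in each list (5 CPM or more on average in any group), the 3 genes most like the member with the largest F, and the nearest tested neighbours. Other genes named for their levels, such as single marker, GATA and overlapping genes, were chosen after their values were seen. Alternatives were other scalings, filters and tools, a fit of only the groups compared, a replicate block, removal of the median log2 fold change of each 20 Mb window with at least 10 tested genes, and leaving out each library.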

Additional observations from a re-analysis of the deposited data

How the results depend on the processing

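The number of members called in KD against WT was 3, and 1 (Ets2) with window medians removed; leaving out each library in turn gave 1 to 3, with 1 without WT replicate 1 and 1 without KD replicate 1. The counts called in OE (against either group) and over the 3 groups stayed within 1.5 times their values under the alternatives run. Of the log2 fold changes of members, those that changed sign were Ets1 in OE with window medians removed (0.10 against WT and 0.02 against KD), Ets2 in OE against WT with upper-quartile factors (0.01) and on leaving out libraries (-0.06 to 0.00), Etv6 with window medians removed in KD (0.00) and with library totals in OE (-0.02), and Gata2 in KD on leaving out libraries (-0.06 to 0.03, the last without WT replicate 3). Apart from Ets1, these had not passed the test, and the cause was not tested. Requiring at least 10 counts in every library removes Fli1 from the test. It leaves 2 of 5 members called in OE against WT and 3 of 5 in OE against KD. That filter kept 14361 genes, of which 5903 and 6683 were called in these comparisons. Over all genes, library totals alone gave 885 higher and 1588 lower in KD against WT (1859 and 1758 with TMM) and 1623 and 3506 in OE (2874 and 3300), and upper-quartile factors gave 4288 and 3151 between OE and KD (3291 and 3740).

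Deviations of same-numbered libraries correlated at -0.04 to 0.05 over 9 pairs, so the replicate numbers were not taken to pair the samples. With the replicate number as a block, 3 members were called in KD and 3 in OE against WT, and 4 between OE and KD, and all 18 member comparisons kept their direction and side of the threshold.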

Other observations

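Some genes of the partner and SOX lists with few counts showed large differences, and those named here were chosen after their values were seen. Tal1, a bHLH factor that works with GATA factors in blood and endothelium, had 189, 264 and 176 counts in WT, 6, 1 and 2 in KD, and 9, 6 and 1 in OE. It was lower in both modified groups, with fitted log2 fold changes of -6.05 (SE 0.391) in KD and -5.27 (SE 0.561) in OE. Tal1 passed the count filter only through WT and was chosen after its values were seen, so no p-value is given. Its KD and OE counts lay near the level of 3 counts, so the size of the fall is uncertain. Sox13, a SoxD factor, had 59, 58 and 43 counts in WT, 2, 1 and 5 in KD, and 149, 172 and 125 in OE. It was lower in KD (-4.26, SE 0.396), where the few counts leave the size of the fall uncertain. Sox13 passed the count filter only through WT and OE, so no p-value is given for KD. In OE Sox13 was higher than in WT (1.45, SE 0.239, adjusted p = 7.76e-05, edgeR). Sox5, of the same subfamily, was higher in KD (0.52, SE 0.127, adjusted p = 0.0422) and lower in OE (-0.56, SE 0.23, adjusted p = 0.0221).

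Some receptors and signalling genes of the endothelial target list also differed, and those named here were chosen after their values were seen. Notch4, Aplnr, Edn1 and Angpt2 of the same list were not called against WT in KD or in OE. Kdr, a VEGF receptor like Flt1, was lower in KD (-0.91, SE 0.163, adjusted p = 0.00261) and in OE (-0.58, SE 0.125, adjusted p = 0.0276, edgeR). Notch1 fell in OE from 19.4 ± 3.14 to 7.6 ± 1.25 CPM (-1.36, SE 0.195, adjusted p = 4.41e-07), and Eng, a TGF-beta co-receptor, from 125 ± 6.78 to 84.9 ± 3.03 (-0.55, SE 0.0538, adjusted p = 1.04e-08). Flt1, a VEGF receptor, was lower in KD, at 12.1 ± 0.979 CPM against 17.2 ± 0.196 in WT (-0.51, SE 0.0673, adjusted p = 1.09e-04), and higher in OE at 21.9 ± 1.58 (0.35, SE 0.0618, adjusted p = 0.00151, edgeR).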
